A study of Homo sapiens with 6 samples.

Results

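Bone morphogenetic protein (BMP) signalling was followed here from ligand to target in the human line MDA-MB-231, derived from a triple-negative breast cancer, after its message for MYO10 had been lowered. The genes were the ligand BMP4, the receptors BMPR1A, ACVR1 and BMPR2, the SMAD proteins SMAD1, SMAD5 and SMAD6, and the targets ID1, ID2 and ID3. They were listed by name, because BMP receptors have been reported as partners of MYO10, a motor that carries cargo to the tips of filopodia. All 24 probe sets that the platform annotation assigns to one of these symbols alone were taken, out of 54675 on the array. They stand for 9 of the 10 genes, and BMPR1A was not analysed here. One group of cells stably expressed MYOSIN10 shRNA and the control group a scramble shRNA, with 3 arrays of total RNA for each. Both grew in L-15 medium with serum. Arrays carry the numbers 1 to 3 within each group, and the labels leave unsaid whether they stand for separate cultures, whether the cells are of one clone, and how many hairpins were used. The p-values therefore measure only the spread among these arrays, and that spread may be technical.

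A BMP ligand joins type I receptors, such as ACVR1, to type II receptors, such as BMPR2, and the type II kinase switches on the type I kinase. The activated receptor phosphorylates SMAD1 and SMAD5, which enter the nucleus with SMAD4, and SMAD6 blocks this step. Among the genes most directly induced are the ID genes, whose proteins hold back basic helix-loop-helix transcription factors, and ID1 is widely used as a readout of the pathway. ID1 and ID3 are also known for roles in breast cancer metastasis.

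No member passed the test. The messages of ID1, ID3 and BMP4 were 1.44, 1.45 and 1.52 times as abundant in MYOSIN10 shRNA cells as in scramble shRNA cells, each with no overlap between the groups and an adjusted p above 0.1. The receptors and SMADs lay close to their scramble levels, with every kept probe set between 0.88 and 1.16 times that level. Values below are log2 of the linear signal plus 16, so that 1 unit is a doubling and dim signals are compressed. Probe sets entered the test if, on 3 or more arrays, they were at or above the 40th percentile of that array. A probe set was called where limma's Benjamini-Hochberg adjusted p over all 33370 kept probe sets was under 0.05.

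The 6 arrays had a common scale, with a trimmed mean linear signal of 500.1 on each. Scramble array 2 stood apart from its group, with a mean correlation across probe sets of 0.977 with its own group and 0.978 with the MYOSIN10 shRNA arrays. The 5 markers of the line (VIM, CD44, AXL, MSN and CAV1) were bright on all arrays. Of 7 luminal or epithelial markers, PGR, CDH1 and KRT20 had no kept probe set, while ESR1, ERBB2, EPCAM and GATA3 had at least 1. GATA3 was not dim, with means of 10.29 on MYOSIN10 shRNA arrays and 10.07 on scramble arrays. EPCAM stood higher with MYOSIN10 shRNA, with no overlap (log2 fold change 0.77, limma adjusted p = 0.177). CDH1, dim and not tested, was also apart on the higher side, and the rest overlapped. The summed linear signal of these 7 was 2252 to 2462 on MYOSIN10 shRNA arrays and 1836 to 2004 on scramble arrays, and its part in the results below was not tested. Of the markers of other cell types, PTPRC and MLANA had no kept probe set and PECAM1 had 3 dim ones.

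MYO10 fell in the cells with its shRNA. Its brightest probe set read 10.7, 11.39 and 10.64 on MYOSIN10 shRNA arrays 1 to 3, against 11.57, 11.96 and 11.86 on scramble arrays. The groups did not overlap, and by this probe set array 2 kept the most MYO10 message among the MYOSIN10 shRNA arrays. A dimmer probe set put array 3 above it, at 7.52 against 7.37, and the other kept ones put array 2 highest. The log2 fold change was -0.88 ± 0.17 (SE, n = 3 each; limma adjusted p = 0.0318). Of 5 kept probe sets, 4 had negative values and 3 had no overlap. The share of all kept probe sets with no overlap on the lower side was not computed. Only the brightest MYO10 probe set was called, and the positive one had a log2 fold change of 0.31. This call was kept under 12 of 18 alternatives. It was lost when MYOSIN10 shRNA array 1 or 3 was left out (limma adjusted p = 0.145 and 0.151), when scramble array 1 or 3 was (0.0759 and 0.163), with no filter on dim probe sets (0.106) and with no trend in the variance model (0.309).

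Over all kept probe sets, 353 were called, which is 1.06%, with 231 higher and 122 lower in MYOSIN10 shRNA cells. Of the members, 18 of 24 probe sets were kept, none of them through one group alone, and 0 were called. An unadjusted p under 0.05 with a higher level in MYOSIN10 shRNA cells was held by 3 of the 18, or 16.7%, against 6.72% of all kept probe sets. No member had such a p with a lower level. In either direction the share was thus 16.7% of the members, against 13.2% of all kept probe sets. Groups did not overlap, with MYOSIN10 shRNA higher, for 4 of the 18, or 22.2%, against 9.18% of all. Of the 18 member probe sets, 14, or 77.8%, had positive fold changes, against 49.7% of all kept probe sets. BMPR2 gave 5 of these 14 and SMAD5 gave 4. The median of the 18 was 0.11, against -0.0020 for all kept probe sets. Several of these probe sets read the same gene, so the 18 are not independent.

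**Figure D1:**
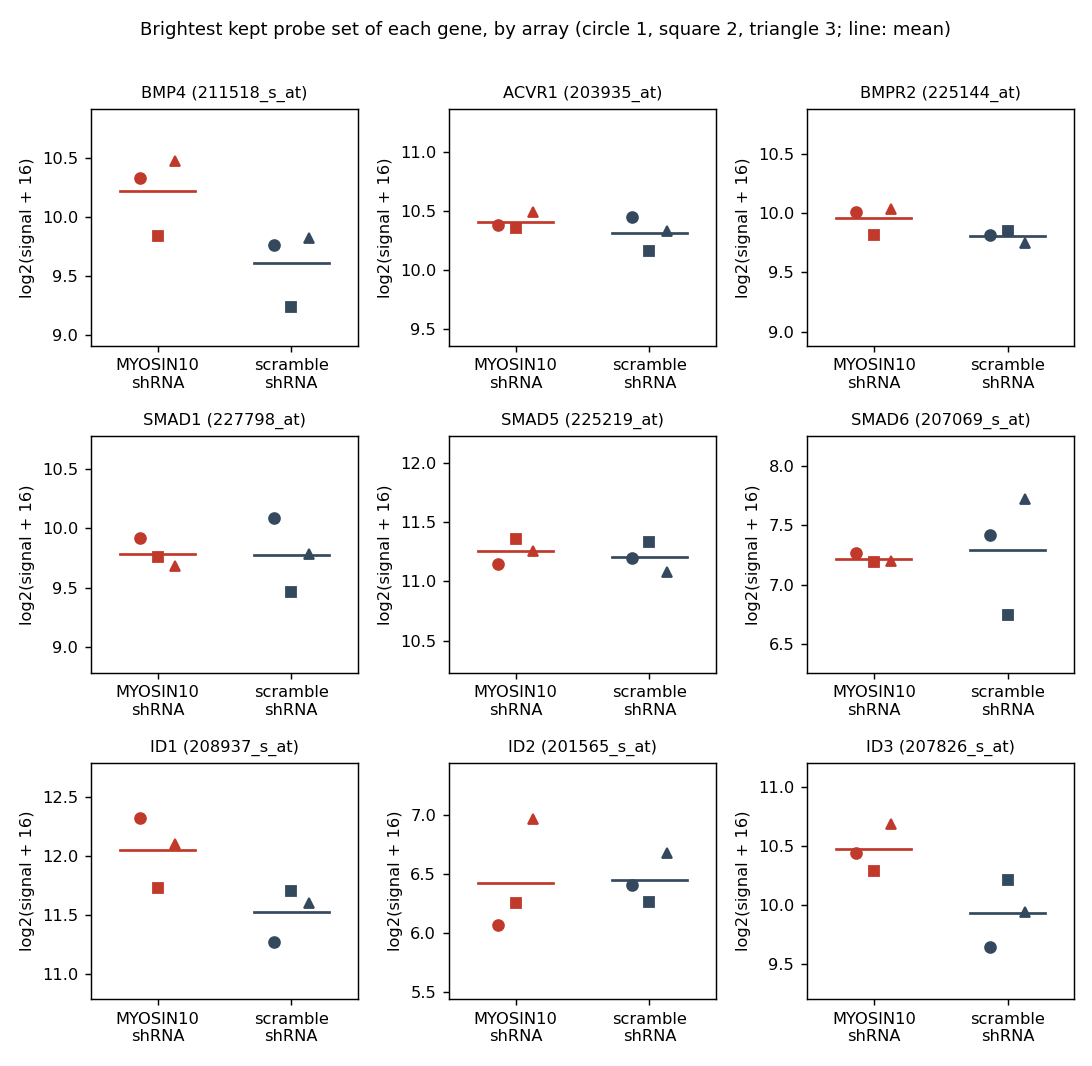
Log2(signal + 16) of the brightest kept probe set of each of the 9 genes on each array, with MYOSIN10 shRNA on the left and scramble shRNA on the right of each panel. Each panel spans 2 log2 units, points are arrays, lines are group means, and the groups are apart for BMP4, ID1 and ID3.

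BMP4, a ligand of the pathway, was read by 1 probe set. It stood at 10.33, 9.84 and 10.47 on MYOSIN10 shRNA arrays 1 to 3, against 9.76, 9.24 and 9.82 on scramble arrays. All 3 MYOSIN10 shRNA arrays lay above all 3 scramble arrays, with array 2 the lowest in both groups. The lowest MYOSIN10 shRNA value and the highest scramble value were 9.84 and 9.82, so the gap was far smaller than the spread within either group. The log2 fold change was 0.61 ± 0.18 (SE, n = 3 each; 95% interval 0.22 to 1.00; limma adjusted p = 0.149).

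ACVR1, a type I receptor kinase also known as ALK2, was read by 1 probe set. It stood at 10.38, 10.36 and 10.49 on MYOSIN10 shRNA arrays, against 10.45, 10.16 and 10.33 on scramble arrays. The groups overlapped, and the log2 fold change of 0.098 had a 95% interval of -0.13 to 0.32 (limma adjusted p = 0.76).

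BMPR2, the type II receptor kinase for BMPs, was read by 6 probe sets, of which 5 were kept. The brightest stood at 10.01, 9.82 and 10.04 on MYOSIN10 shRNA arrays, against 9.82, 9.85 and 9.75 on scramble arrays, with overlapping groups. Its log2 fold change was 0.15 (95% interval -0.079 to 0.38; limma adjusted p = 0.601). The second brightest was singled out after its values were seen. It read 9.07, 9.11 and 8.98 on MYOSIN10 shRNA arrays, against 8.9, 8.84 and 8.91 on scramble arrays. Here the groups were apart, by a small margin, and the log2 fold change was 0.17 (limma adjusted p = 0.583). All 5 kept probe sets had positive fold changes between 0.13 and 0.19, and each interval included 0. The unkept probe set was dim, at 6.14, 4.94 and 4.99 on MYOSIN10 shRNA arrays, against 4.64, 4.8 and 4.79 on scramble arrays. Its groups were apart, and 1 array, MYOSIN10 shRNA array 1, reached the 40th percentile.

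SMAD1, a receptor-activated SMAD, had 2 kept probe sets of 3. The brighter stood at 9.92, 9.76 and 9.68 on MYOSIN10 shRNA arrays, against 10.09, 9.46 and 9.78 on scramble arrays, so that the scramble arrays lay on both sides of the MYOSIN10 shRNA arrays. The log2 fold changes of the pair were 0.011 (95% interval -0.31 to 0.33) and -0.12 (95% interval -0.49 to 0.26).

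SMAD5, which carries the same signal, had 5 probe sets, all kept. The brightest read 11.15, 11.36 and 11.26 on MYOSIN10 shRNA arrays, against 11.2, 11.33 and 11.08 on scramble arrays, with overlap. The fold change was 0.056 on the log2 scale (95% interval -0.15 to 0.26). The 5 probe sets ran from -0.19 to 0.21, with 4 positive and 1 negative, and the lowest limma adjusted p among them was 0.555.

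SMAD6, an inhibitory SMAD that the pathway itself induces as a brake, had 1 kept probe set of 4. It stood at 7.27, 7.19 and 7.2 on MYOSIN10 shRNA arrays, against 7.42, 6.74 and 7.72 on scramble arrays. The SD was 0.045 for MYOSIN10 shRNA and 0.50 for scramble shRNA, where array 2 was the lowest, and the groups overlapped. The log2 fold change was -0.079 (95% interval -0.60 to 0.45; limma adjusted p = 0.931). The other SMAD6 probe sets were dim, between 4.19 and 6.33.

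The ID genes are the targets in the list. Their promoters are shown because ID1 and ID3 stood higher on the same 3 arrays, and ID2 did not. Each is the 250 bases before the RefSeq start of the gene on GRCh38.p14, 5′ to 3′ on the strand of the gene. Capitals mark GTCT, the letters of the SMAD-binding element, and TATAA, the core of a TATA box, on either strand. ID1 lies at chr20:31605039-31605288 (plus strand), ID3 at chr1:23559502-23559751 (minus strand) and ID2 at chr2:8681806-8682055 (plus strand).
ID1: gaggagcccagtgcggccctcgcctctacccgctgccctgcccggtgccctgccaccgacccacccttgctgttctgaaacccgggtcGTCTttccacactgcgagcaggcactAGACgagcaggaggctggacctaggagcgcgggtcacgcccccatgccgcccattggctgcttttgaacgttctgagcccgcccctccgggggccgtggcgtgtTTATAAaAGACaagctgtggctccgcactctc
ID3: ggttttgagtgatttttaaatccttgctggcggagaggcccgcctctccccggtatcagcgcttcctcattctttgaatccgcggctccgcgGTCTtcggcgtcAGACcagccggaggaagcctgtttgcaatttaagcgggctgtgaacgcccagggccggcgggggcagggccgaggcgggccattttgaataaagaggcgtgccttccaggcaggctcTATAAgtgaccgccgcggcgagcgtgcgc
ID2: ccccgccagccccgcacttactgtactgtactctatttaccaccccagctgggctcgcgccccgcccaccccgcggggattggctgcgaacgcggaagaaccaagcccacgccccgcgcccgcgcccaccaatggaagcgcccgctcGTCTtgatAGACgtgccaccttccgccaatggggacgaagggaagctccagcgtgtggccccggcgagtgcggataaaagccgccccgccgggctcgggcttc

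GTCT or its reverse complement AGAC occurred 3 times before ID1, and 2 times each before ID3 and ID2, and 77.5% of all 35116 RefSeq windows of this length held it. TATAA or its reverse complement TTATA lay 32 bases before the start of ID1, where both strands match and overlap, and 29 bases before that of ID3. The ID2 window held no exact match, and 18.9% of all windows held one. Only these exact letters were searched, not variants of the TATA box, and the ID2 window holds the similar letters GATAAAAG near its end. The windows therefore do not show that ID2 lacks a TATA box. A link between these letters and the array values was not tested. GGCGCC, the GC-rich letters bound by SMAD1 and SMAD5, was in none of the 3 windows and in 16.4% of all. Bases further upstream were not searched, so sites there would be missed. The motifs were chosen after the array values were known, and a match is a description of letters, not a bound site.

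ID1 was read by 1 probe set, at 12.32, 11.73 and 12.1 on MYOSIN10 shRNA arrays 1 to 3, against 11.27, 11.7 and 11.6 on scramble arrays. The groups were apart by a narrow margin, since the arrays numbered 2, at 11.73 and 11.7, were the lowest of the MYOSIN10 shRNA arrays and the highest of the scramble arrays. The log2 fold change was 0.53 ± 0.14 (SE, n = 3 each; 95% interval 0.21 to 0.84; limma adjusted p = 0.118).

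ID3 had 1 probe set, at 10.44, 10.29 and 10.68 on MYOSIN10 shRNA arrays, against 9.64, 10.21 and 9.94 on scramble arrays. As for ID1, array 2 was the lowest with MYOSIN10 shRNA and the highest with scramble shRNA, and the groups were apart. The log2 fold change was 0.54 ± 0.15 (SE, n = 3 each; 95% interval 0.22 to 0.86; limma adjusted p = 0.114). MYOSIN10 shRNA array 2, which kept the most MYO10 by its brightest probe set, thus held the lowest level of ID1, ID3 and BMP4 in its group. Among the scramble arrays, array 2 also read the most MYO10, at 11.96, and there it held the highest ID1 and ID3 and the lowest BMP4. Whether these are linked was not tested.

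ID2 was dim. Its 1 kept probe set of 2 stood at 6.07, 6.25 and 6.96 on MYOSIN10 shRNA arrays, against 6.41, 6.26 and 6.68 on scramble arrays. The groups overlapped, with a log2 fold change of -0.023 (limma adjusted p = 0.985). The 95% interval of -0.66 to 0.61 includes the values of ID1 and ID3, so a like difference in ID2 could not be told from none at this signal. The difference between ID genes was not tested.

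**Figure D2:**
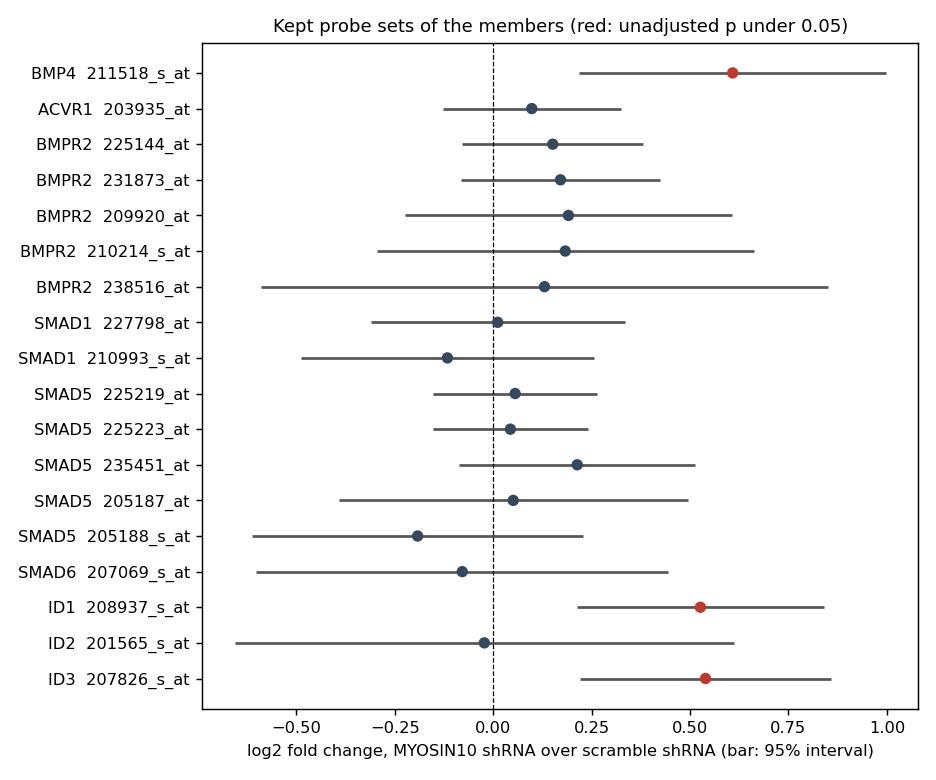
Log2 fold change, MYOSIN10 shRNA over scramble shRNA, of the 18 kept member probe sets, with 95% intervals from limma as bars. Red marks an unadjusted p under 0.05, which was held by BMP4, ID1 and ID3 alone, and the other 15 intervals include 0.

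Whether ID1, ID3 and BMP4 passed changed with the arrays used and with the model. With all 6 arrays and limma's array weights, ID1 (limma adjusted p = 0.0286) and ID3 (0.0296) were called and BMP4 was not (0.0666), and 2.84% of all kept probe sets were called. Without scramble array 2, ID1 at 0.62 (limma adjusted p = 0.0412) and ID3 at 0.68 (0.0153) were called, while BMP4 at 0.43 was not (0.176), and 4.39% of all kept probe sets were called. Without MYOSIN10 shRNA array 2, ID1 alone was called, at 0.69 (limma adjusted p = 0.038), against 0.806% of all. Without both, ID1 at 0.78 (limma adjusted p = 0.00306), ID3 at 0.77 (0.00541) and BMP4 at 0.61 (0.00652) were called, against 4.96% of all. Without any other single array, none of them was called, and over the 6 single omissions the fold changes ran from 0.39 to 0.69 for ID1, from 0.40 to 0.68 for ID3 and from 0.43 to 0.79 for BMP4. Leaving out scramble array 2 takes out the highest scramble value of ID1 and ID3 and the lowest of BMP4. Leaving out MYOSIN10 shRNA array 2 takes out the lowest value of its group for all 3 genes. For ID1 and ID3, each of these omissions widens the gap between the groups by construction. The arrays numbered 2 were the only pair left out together, so the calls without them are not separate support. ACVR1, BMPR2, SMAD1, SMAD5 and SMAD6 were not called under any of these omissions.

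**Figure D3:**
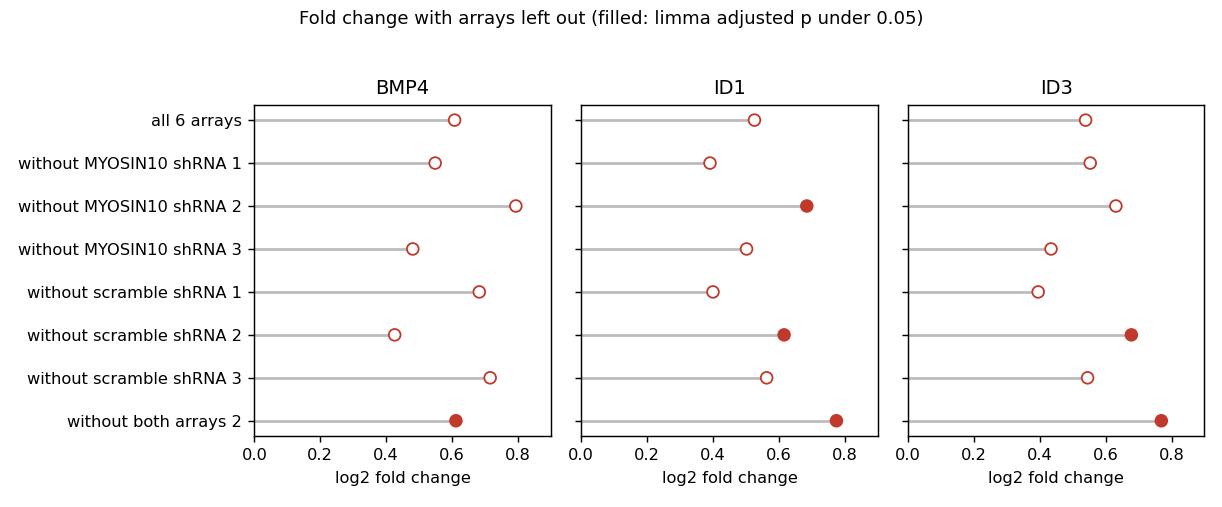
Log2 fold change, MYOSIN10 shRNA over scramble shRNA, of BMP4, ID1 and ID3 with all 6 arrays and with arrays left out. Filled points have a limma adjusted p under 0.05: 2 for ID3, 3 for ID1 and 1 for BMP4, each of them without an array numbered 2.

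Of 65 other genes of the pathway, taken from general knowledge, 62 had a probe set of their own and 46 had a kept one. Each was read by its brightest kept probe set. None was called, against 1.39% of 14174 genes read in the same way, and 9, or 19.6%, had an unadjusted p under 0.05, against 15.1% of all genes. Of these 9, 3 stood higher and 6 lower in MYOSIN10 shRNA cells. The median log2 fold change of the 46 was -0.013, against 0.0093 for all genes.

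By role, an unadjusted p under 0.05 was held by 0 of 7 further ligands, 2 of 5 receptors and co-receptors (both lower) and 1 of 10 secreted antagonists (higher). It was held by 6 of 15 intracellular mediators and brakes (2 higher, 4 lower) and by 0 of 9 further targets. The median log2 fold change was -0.044 for the further ligands, -0.24 for the receptors and co-receptors and -0.0084 for the antagonists. It was -0.018 for the mediators and brakes and 0.16 for the further targets, of which 6 of the 9 were positive. The target median was the value of ID4, which was dim, with an SD of 1.07 on scramble arrays and an interval of -0.88 to 1.19. A shared rise of the further targets was not tested. The 4 genes with the smallest p were SMURF2, MAP3K7, SMURF1 and FSTL3.

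SMURF2 is a ubiquitin ligase that marks receptors and SMADs for breakdown. Its brightest probe set read 13.92, 14.13 and 13.84 on MYOSIN10 shRNA arrays, against 14.32, 14.25 and 14.42 on scramble arrays. The groups were apart, with a log2 fold change of -0.37 ± 0.083 (SE, n = 3 each; limma adjusted p = 0.059). All 4 kept probe sets of SMURF2 had negative values, from -0.44 to -0.33, and 3 had no overlap. For this gene and those below, the share of all probe sets apart on the lower side was not computed. These 4 read 1 gene on the same arrays, so they are not independent. The second brightest, singled out after its values were seen, passed. It stood at 11.85, 12.04 and 11.99 on MYOSIN10 shRNA arrays, against 12.38, 12.32 and 12.5 on scramble arrays, with a fall of 0.44 in log2 units (log2 fold change -0.44, limma adjusted p = 0.0291). It was not called when MYOSIN10 shRNA array 1 or 3 was left out (limma adjusted p = 0.168 and 0.119) or scramble array 1 or 3 (0.124 and 0.151). The brightest probe set was called when array 2 of either group was left out (limma adjusted p = 0.029 for MYOSIN10 shRNA and 0.0264 for scramble shRNA).

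SMURF1, the ligase first found as a partner of SMAD1, read 9.71, 9.66 and 9.6 on MYOSIN10 shRNA arrays, against 10.06, 9.97 and 9.84 on scramble arrays. The groups were apart (log2 fold change -0.30, limma adjusted p = 0.237), and its 3 kept probe sets ran from -1.16 to -0.023, so they did not agree on a size. MAP3K7, the kinase TAK1 of the branch that does not use SMADs, read 9.83, 9.85 and 9.93 on MYOSIN10 shRNA arrays, against 10.28, 10.14 and 10.09 on scramble arrays. It was also apart (-0.30, limma adjusted p = 0.22), and its 4 kept probe sets were all negative, from -0.38 to -0.088.

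FSTL3, a secreted binder of activins and some BMPs, read 8.57, 8.31 and 8.76 on MYOSIN10 shRNA arrays, against 8.18, 8.07 and 8.13 on scramble arrays. Its groups were apart, with a log2 fold change of 0.42 (limma adjusted p = 0.243). SMAD4, the partner shared with TGF-beta signalling, read 10.05, 10.13 and 9.92 on MYOSIN10 shRNA arrays against 10.18, 10.23 and 10 on scramble arrays. The groups overlapped (log2 fold change -0.10, limma adjusted p = 0.75). The 4 kept probe sets of SMAD4 ran from -0.17 to 0.55, with 3 negative and 1 positive, and none was called. Without scramble array 2, 3 of the 46 were called, namely SMURF2, TOB1 and ACVR2B, of which TOB1 and ACVR2B are named only after that result. Under that omission 4.39% of all kept probe sets were called. The share over genes read by their brightest probe set was not computed there.

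**Figure D4:**
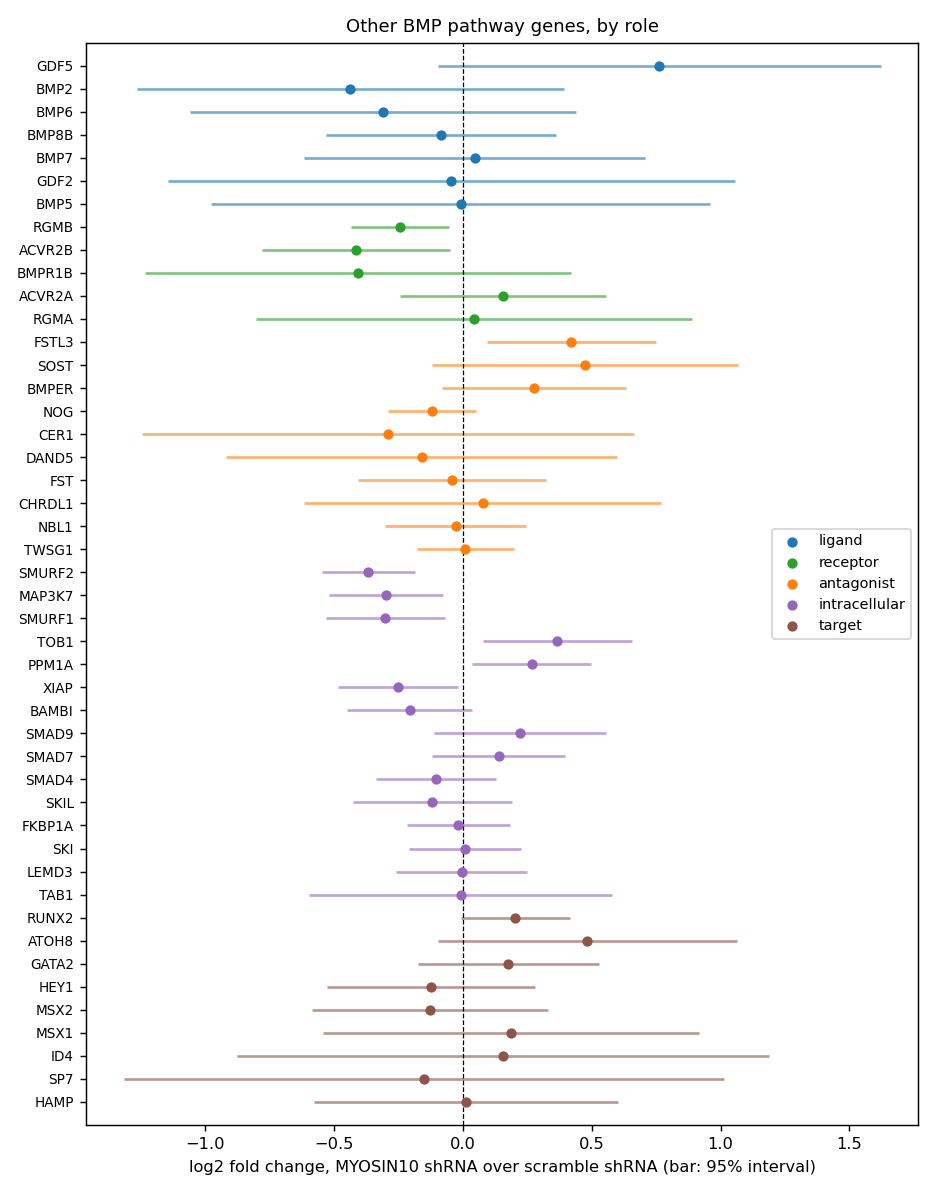
Log2 fold change, MYOSIN10 shRNA over scramble shRNA, of the 46 other BMP pathway genes with a kept probe set, coloured by role and ordered by p within each role, with 95% intervals as bars. Of the 46 intervals, 9 exclude 0, and SMURF2 has the lowest limma adjusted p, 0.059.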

How the data were processed

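The 6 samples were hybridised to 1-colour Affymetrix arrays after 3' in vitro transcription labelling, per the labels' protocols. The authors deposited log2 MAS5 signals, MAS5 being named in the submitters' processing notes. The sources used here do not give its version or scaling target. The log2 scale was read from the values: the mean linear signal, with 2% trimmed at each end, was 500.1 on every array. Such scaling hides any change of total RNA per cell, and the number of arrays limits the precision.

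Here values were made linear, 16 was added and log2 was taken again. Symbols came from the platform annotation (41097 probe sets with 1 symbol, 1801 with several, 11777 with none listed), and 41043 were updated by Entrez number through the RefSeq table of GRCh38.p14. All 33370 kept probe sets were fitted with limma 3.58.1 in R 4.3.3 (lmFit on group alone, then eBayes with trend = TRUE, which lets the variance follow the signal; two-sided tests), and p-values were adjusted over all of them by Benjamini-Hochberg. Steps were tested on simulated data. Alternatives changed the added value, filter, scaling, variance model, array weights, probe set rule, replicate block and arrays used. Each gene's brightest kept probe set, and any other member probe set with an unadjusted p under 0.05, was to be given on every array. From the other pathway genes every called one was to be named, or with fewer than 4 called the 4 with the smallest p, and SMAD4. The members and lists were chosen with earlier results of these data known. Python 3.11.15 with matplotlib 3.10.9 drew the figures.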

Additional observations from a re-analysis of the deposited data

How the results depend on the processing

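Of 18 alternatives, 5 brought a member past the threshold: array weights (2 called, ID1 at 0.62 and ID3 at 0.62), the replicate block (2 called, ID3 with limma adjusted p = 0.0469 and BMP4 with 0.00584), and the omission of MYOSIN10 shRNA array 2, of scramble array 2 or of both (3 called). ID1, ID3 and BMP4 were positive in all 18. Leaving out 1 array each, the members called ran from 0 to 2, the other pathway genes called from 0 to 3 and all probe sets called from 59 to 1466. All probe sets called numbered 173 without a filter, 949 with array weights, 229 genes with 1 probe set per gene, and 1655 without both arrays numbered 2. Without the variance trend 0 of 33370 passed in limma, with 11% at an unadjusted p under 0.05 and ID1, ID3 and BMP4 at limma adjusted p of 0.415, 0.389 and 0.425. Other pathway genes called numbered 1 with the 60th percentile filter, quantile normalization, array weights or the replicate block (SMURF2 each time), and 4 without both arrays numbered 2, with XIAP, named after its value was seen, added to the 3 named above. The second brightest probe set of SMURF2 kept its call in 11 of 17 alternatives.

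Of all kept probe sets, 2.84% were called with array weights and 2.67% (891) with the replicate block, against 1.06% (353) in the fit reported above. Deviations of same-numbered arrays correlated at 0.033, 0.12 and 0.013, and not every array correlated best with its own number, so the numbers were not treated as pairs. Whether they stand for shared cultures or days is not known.

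The sign turned for the brighter SMAD1 probe set under quantile normalization (-0.0051), array weights (-0.036) and without both arrays numbered 2 (-0.13). With 1 array left out, signs turned for probe sets near 0, over ranges of -0.15 to 0.17 for that one, -0.32 to 0.041 for the other of SMAD1, -0.29 to 0.36 for the dimmest kept one of BMPR2, -0.0061 to 0.12, -0.0029 to 0.097 and -0.073 to 0.28 for 3 of the 5 of SMAD5, -0.36 to 0.13 for SMAD6 and -0.29 to 0.16 for ID2. None of these was called in any alternative, and the cause of the turns was not tested. ID2 and SMAD6 were dim, and their 95% intervals of -0.66 to 0.61 and -0.60 to 0.45 show what 3 arrays in each group could resolve there.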
